A study of Mus musculus with 20 samples.

Results

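Small heat shock proteins were followed through 7 genes, Hspb1, Hspb8, Hspb7, Hspb6, Cryab, Hspb2 and Hspb3, which were listed by symbol and not picked by a threshold on their values. Earlier results of these data were known when the list was chosen. Counts and medians over the members therefore describe the list and cannot test a family effect. All 7 were measured, each by 1 probe, among 19505 genes with a symbol. The study hybridised total RNA of adipocytes to 20 expression arrays in 4 groups of 5: Olfm2 knockout cells of the depot labelled g, wild-type cells of g, Olfm2 knockout cells of the depot labelled sc, and wild-type cells of sc. Per the labels, the cells came from mouse adipose tissue and were differentiated in vitro, and the labels spell out neither depot name. The sources used here do not give the strain, sex or age of the mice, the kind of Olfm2 allele, or whether cultures were separate, so p-values measure only the spread between these samples. Olfm2 encodes the secreted glycoprotein olfactomedin 2, and the comparison asks what its loss changes in fat cells.

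Small heat shock proteins are chaperones that work without ATP. They share an alpha-crystallin domain, assemble into oligomers, hold unfolding proteins in a soluble state and pass them to ATP-driven chaperones of the HSP70 class for refolding. Many members are abundant in heart and skeletal muscle, where they protect actin and intermediate filaments, and several are also made in fat, where cells fill with lipid and rebuild their cytoskeleton as they differentiate.

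The labelled cell type and genotype were checked first. Of 15 mature adipocyte markers 14 were measured, and their mean log2 signal lay between 10.9 and 11.8 on all 20 arrays. Olfm2 signal fell in the knockout, by a log2 difference of -0.80 in g (limma adjusted p = 0.00784) and -1.66 in sc (limma adjusted p = 0.000152), with no overlap between genotypes in either depot. Its probe was dim and exceeded the median of the negative control probes on only 3 arrays, all wild-type sc, so that both genotypes in g were below that level. Though labelled as cells differentiated in vitro, all arrays carried transcripts that mark other cells. The mean of 11 measured macrophage markers was 8.19 to 10.4 over the 20 arrays, and that of 10 measured endothelial markers was 7.80 to 8.99. Beside these, the 95th percentiles of the negative controls were 7.02 to 7.48. Some arrays also carried transcripts of further tissues. The mean of 26 skeletal muscle markers was above 7 on sc286WT, sc307WT and sc317KO, that of 9 measured lymphocyte markers was above 8 on sc317KO, sc320KO and sc286WT, and that of 15 measured hepatocyte markers was above 7 on 8 arrays, 4 of them knockout g. Arrays measure a bulk sample, in which fewer cells of a type and less RNA per cell cannot be told apart.

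**Figure D1:**
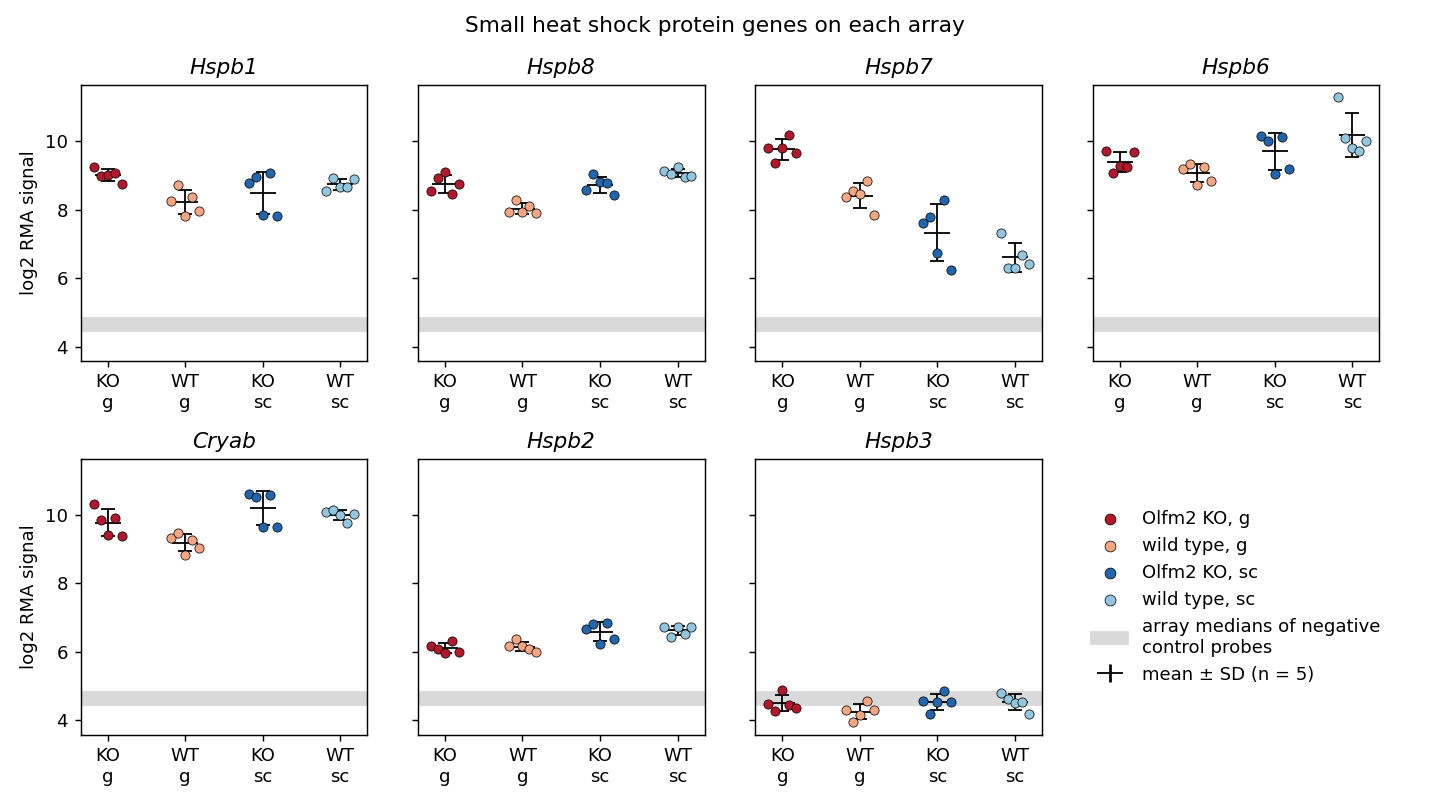
Log2 RMA signal of each small heat shock protein gene on each of the 20 arrays (points), with the mean and SD of each group of 5 and, in grey, the range of the arrays' negative control medians. In g the knockout points of Hspb1, Hspb8 and Hspb7 lie above all wild-type points, and Hspb3 lies at the level of the negative controls.

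In g adipocytes loss of Olfm2 was accompanied by higher Hspb7, Hspb1 and Hspb8. The 3 genes rose 2.54-fold, 1.74-fold and 1.65-fold, and none of the 7 fell. In this comparison 3 of 7 members passed limma's test at an adjusted p of 0.05, beside 11.3% of all genes in either direction with 5.01% higher and 6.27% lower. For the same 3 genes the knockout and wild-type arrays did not overlap, which held for 10.4% of all genes. The median log2 difference was 0.59 over the 7 members and 0.02 over all genes.

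Hspb1, known as HSP25 in mouse, caps actin filaments and is phosphorylated by the stress kinase MAPKAPK2. Its log2 signal was 8.74, 9.08, 9.01, 8.99 and 9.25 on the knockout g arrays g320 KO, g318 KO, g317 KO, g306 KO and g300 KO. On the wild-type g arrays g286 WT, g287 WT, g307 WT, g308 WT and g309 WT it was 8.24, 8.71, 7.82, 8.37 and 7.95. Every knockout array was above every wild-type one, though g320 KO and g287 WT lay side by side. The log2 difference was 0.80 (SE 0.22, limma adjusted p = 0.0228), and the call was lost without g300 KO (0.74, adjusted p = 0.0516), g307 WT (0.70, adjusted p = 0.0748) or g309 WT (0.73, adjusted p = 0.0654). It was also lost with the mean of the hepatocyte markers as a covariate (0.69, limma adjusted p = 0.108), and with other marker means given below.

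Hspb8 joins the co-chaperone BAG3 to steer damaged proteins, such as unfolded filamin, to autophagy. It had log2 signals of 8.75, 8.46, 9.08, 8.93 and 8.54 in knockout g cells, in the same order of arrays, and 7.94, 8.27, 7.94, 8.10 and 7.89 in wild-type g cells. The groups did not overlap, and the wild-type values were close together with an SD of 0.16. Of the 7 members Hspb8 had the smallest p in this comparison, with a log2 difference of 0.72 (SE 0.12, limma adjusted p = 0.000847).

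Hspb7, also named cvHsp, was described in heart, skeletal muscle and fat and keeps proteins from aggregating without the HSP70 machinery. On the same arrays, knockout g cells had log2 signals of 9.65, 10.19, 9.79, 9.36 and 9.78, against 8.38, 8.55, 8.44, 8.82 and 7.85 in wild-type g cells. The lowest knockout array, g306 KO, was still well above the highest wild-type array, g308 WT. At 1.35 (SE 0.30, limma adjusted p = 0.00591) this was the largest knockout difference among the members, and 99.5% of all genes had a lower one in g.

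The other 4 members did not pass in g. Cryab, the alpha-B crystallin that stabilises desmin and other intermediate filaments, averaged 9.77 ± 0.40 in knockout g cells and 9.18 ± 0.25 in wild-type g cells (log2, SD, n = 5). Its difference of 0.59 (SE 0.21, limma adjusted p = 0.0726) passed in 5 of 28 alternative analyses, with adjusted p between 0.0183 and 0.906 over all of them. Hspb6, or HSP20, which is phosphorylated in response to cyclic nucleotides and relaxes smooth muscle, averaged 9.39 ± 0.29 in knockout and 9.06 ± 0.26 in wild-type g cells (difference 0.33, 95% interval -0.23 to 0.89, limma adjusted p = 0.502). Hspb2, a partner of the myotonic dystrophy kinase DMPK, averaged 6.11 ± 0.14 in knockout and 6.15 ± 0.14 in wild-type g cells, and the interval of its difference was -0.28 to 0.20. Hspb3, which forms a complex with Hspb2 in muscle, lay below the negative control median on 3 of 5 knockout and all 5 wild-type g arrays, so no level can be read from it.

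Markers of other cells moved beside these genes in g. The mean of 11 measured macrophage markers was 8.90 to 9.53 on knockout g arrays and 9.85 to 10.4 on wild-type g arrays, and 10 of the 11 fell. That of the 14 adipocyte markers was 11.4 to 11.6 on knockout and 10.9 to 11.3 on wild-type g arrays, and 8 of the 14 rose. Neither mean overlapped between genotypes. With the macrophage mean as a covariate no member was called, beside 1 of all genes, against 2200 of all genes without a covariate. The log2 differences of Hspb7, Hspb8 and Hspb1 were then 0.92, 0.50 and 0.48 (limma adjusted p = 0.737, 0.598 and 0.843). With the adipocyte mean no member was called either, beside 10 of all genes. The differences were then 1.22, 0.43 and -0.18 (limma adjusted p = 0.395, 0.445 and 0.867), so that Hspb1 changed sign. Since both means separate the genotypes in g, their part and that of the knockout cannot be told apart. The mean of 15 measured hepatocyte markers was 5.72 to 10.6 on knockout and 5.25 to 9.04 on wild-type g arrays. All 15 differences were above 0, with a median of 2.02, and 0 of the 15 were called. With this mean as a covariate Hspb7 and Hspb8 kept their calls (1.21 and 0.68, limma adjusted p = 0.0362 and 0.00706). Hspb1 lost its call (0.69, limma adjusted p = 0.108). When the 8 hepatocyte-high arrays were dropped, g kept 3 wild-type arrays and a lone knockout array, whose spread was taken from the rest. The differences of Hspb7, Hspb1 and Hspb8 were then 1.502, 1.09 and 0.51, with adjusted p of 0.268, 0.324 and 0.402. The skeletal muscle mean was low on all g arrays, at 5.27 to 5.45 on knockout and 5.27 to 5.39 on wild-type ones.

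Because Hspb7, Hspb8 and Hspb1 moved together in g, their promoters are shown. The lines give the 250 bases before the RefSeq start of each gene (assembly GRCm38.p6), 5′ to 3′ on the gene's strand, with capitals at matches to the core of the heat shock element, searched as GAANNTTC and TTCNNGAA, each of which reads the same on both strands.
Hspb1, chr5:135887669-135887918, plus strand: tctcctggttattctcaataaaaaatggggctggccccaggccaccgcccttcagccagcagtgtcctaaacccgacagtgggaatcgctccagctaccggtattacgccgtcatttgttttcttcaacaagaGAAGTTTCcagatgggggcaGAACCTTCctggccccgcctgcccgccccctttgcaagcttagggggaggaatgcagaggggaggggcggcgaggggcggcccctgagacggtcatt
Hspb8, chr5:116422865-116423114, minus strand: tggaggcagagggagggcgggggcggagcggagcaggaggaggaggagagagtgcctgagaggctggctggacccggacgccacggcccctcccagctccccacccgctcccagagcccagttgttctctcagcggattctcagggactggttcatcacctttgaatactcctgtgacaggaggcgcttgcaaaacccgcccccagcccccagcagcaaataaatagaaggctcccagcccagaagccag
Hspb7, chr4:141420529-141420778, plus strand: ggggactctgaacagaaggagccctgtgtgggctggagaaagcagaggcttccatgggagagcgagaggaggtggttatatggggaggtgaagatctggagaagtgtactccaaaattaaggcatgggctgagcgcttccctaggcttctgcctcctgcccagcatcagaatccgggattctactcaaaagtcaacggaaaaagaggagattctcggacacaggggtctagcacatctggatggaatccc
In the full windows, which run on for 50 bases past the start, Hspb1 held GAAGTTTC and GAACCTTC, with first bases at -117 and -97 from the start. Hspb8 held GAAGTTTC at base 3 after the start, just past the printed stretch, and Hspb7 held no match. The RefSeq table had 6 windows for 5 of the members, Hspb6 with 2 starts, and none for Cryab and Hspb2. The second Hspb6 window held GAAGTTTC at -120 from that start, and the Hspb3 window GAATTTTC. A share of 15.1% of all 32851 RefSeq windows of this length held a match to either form. A match is a description of the letters and not evidence of binding by the heat shock factor HSF1.

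**Figure D2:**
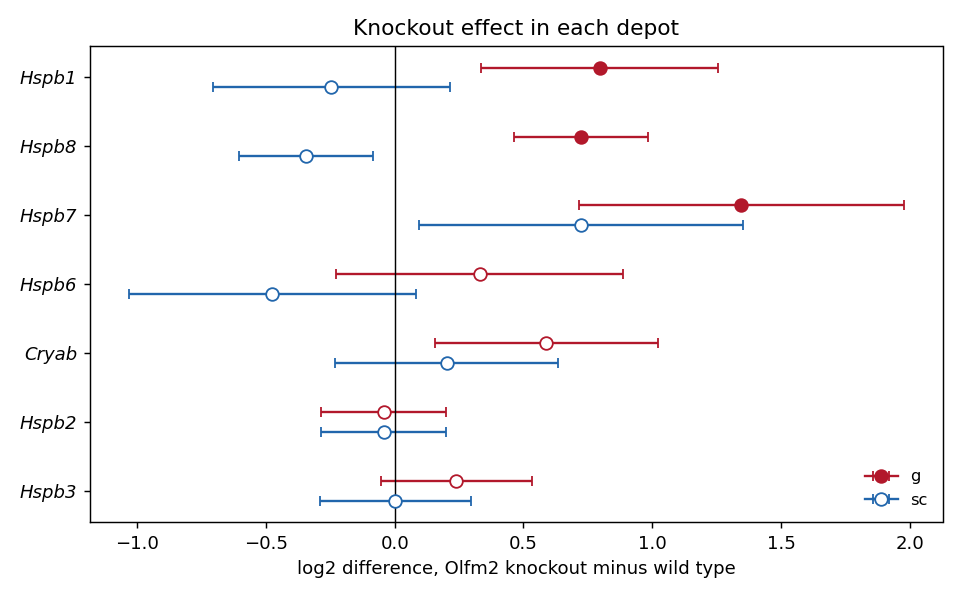
Log2 difference of Olfm2 knockout minus wild type for each member, in g (red) and sc (blue), with limma's 95% interval. Filled points, which are Hspb1, Hspb8 and Hspb7 in g, passed an adjusted p of 0.05.

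In sc adipocytes none of the 7 members passed limma's test between knockout and wild type, beside 0.677% of all genes called, 0.297% higher and 0.379% lower. At an unadjusted p under 0.05 there were 2 members, Hspb7 and Hspb8, beside 10.3% of all genes. The median difference was -0.04 over the members and 0.01 over all genes, and the genotypes overlapped for every member, beside 2.94% of all genes without overlap.

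Hspb7 had the largest SD of the members among knockout sc arrays, at 0.83. It was 7.62, 7.77, 6.74, 8.28 and 6.23 on the knockout arrays sc300KO, sc306KO, sc317KO, sc318KO and sc320KO, and 7.32, 6.29, 6.30, 6.69 and 6.41 on the wild-type arrays sc286WT, sc287WT, sc307WT, sc308WT and sc309WT. The 3 knockout arrays sc300KO, sc306KO and sc318KO were above all wild-type arrays, while sc317KO and sc320KO lay within the wild-type range or just below it. These 2 arrays and sc286WT, the highest wild-type array, are the 3 with high lymphocyte markers, with means of 8.72, 8.44 and 8.31, beside 5.27 to 5.63 on the other sc arrays. Hspb7 was below the 95th percentile of the negative controls on all 5 wild-type and 2 of 5 knockout sc arrays, though above their median on all. Over all 5 arrays a group the difference was 0.72 (SE 0.30, limma adjusted p = 0.376). Without the lymphocyte-high arrays, an alternative chosen after the values were seen, it was 1.47 (limma adjusted p = 0.00394). Leaving out the 2 lowest knockout values and the highest wild-type value widens the difference by construction. This p can therefore not decide whether Hspb7 differs in sc. With array weights the difference was 1.11 (limma adjusted p = 0.0374).

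Hspb8 had the opposite sign in sc, without passing the test. Knockout sc cells had 8.56, 9.03, 8.80, 8.77 and 8.43, against 9.11, 9.03, 9.23, 8.95 and 8.99 in wild-type sc cells. The ranges overlapped only through sc306KO, and the difference was -0.35 (SE 0.12, limma adjusted p = 0.273, unadjusted p = 0.0120). Over 28 alternatives it lay between -0.43 and -0.26 and did not pass in any.

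Hspb1, Cryab and Hspb6 shared the low knockout arrays of Hspb7. Hspb1 was 8.77, 8.95, 7.84, 9.08 and 7.81 in knockout and 8.53, 8.93, 8.67, 8.66 and 8.88 in wild-type sc cells. Cryab was 10.59, 10.52, 9.66, 10.59 and 9.65 in knockout and 10.07, 10.15, 9.98, 9.77 and 10.02 in wild-type sc cells. For both genes sc317KO and sc320KO were the lowest sc arrays, and the other knockout arrays lay above all wild-type arrays for Cryab and among or above them for Hspb1. The differences were -0.25 for Hspb1 (SE 0.22, limma adjusted p = 0.770) and 0.20 for Cryab (SE 0.21, limma adjusted p = 0.810). Without the lymphocyte-high arrays they were 0.15 (limma adjusted p = 0.896) and 0.59 (limma adjusted p = 0.312). The part of lymphocyte transcripts in these values was not tested further.

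Hspb6 was 10.14, 10.00, 9.05, 10.12 and 9.17 in knockout sc cells and 11.27, 10.08, 9.79, 9.71 and 10.01 in wild-type sc cells. The array sc286WT stood alone at the top, and sc317KO and sc320KO were again the lowest. On sc286WT the skeletal muscle mean was also the highest, 10.0, beside 8.21 on sc307WT, 7.21 on sc317KO and 5.40 to 6.77 on the other sc arrays. The difference between genotypes was -0.48 (SE 0.27, limma adjusted p = 0.568) and, without the 3 muscle-high arrays, -0.07 (limma adjusted p = 0.976). The interval of the difference was -0.28 to 0.20 for Hspb2 and -0.29 to 0.30 for Hspb3, and neither passed.

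**Figure D3:**
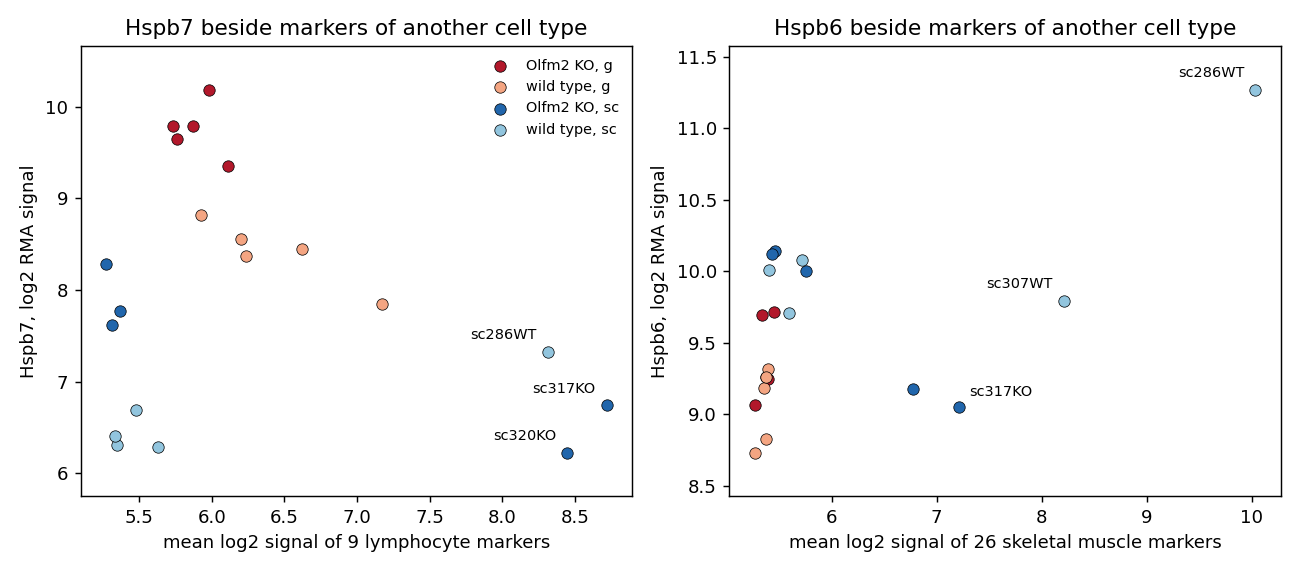
Left, Hspb7 against the mean log2 signal of 9 lymphocyte markers, and right, Hspb6 against that of 26 skeletal muscle markers, 1 point for each of the 20 arrays, coloured by group. Among the named arrays, with a marker mean above 8 (left) or 7 (right), the low knockout sc points of Hspb7 are sc317KO and sc320KO, and the top Hspb6 point is sc286WT.

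The knockout effect itself was compared between the depots. Hspb8 was the member that passed the test of the difference, g minus sc, at 1.07 on the log2 scale (SE 0.18, limma adjusted p = 0.0179). Hspb8 was 1 of 15 genes called in this comparison, 0.0769% of all genes (0.0410% higher and 0.0359% lower), and ranked sixth by p. The test uses the same arrays as the comparisons within each depot. For Hspb1 the difference of effects was 1.04 (SE 0.31, limma adjusted p = 0.179), for Hspb6 0.81 (SE 0.38, adjusted p = 0.374), for Hspb7 0.62 (adjusted p = 0.560) and for Cryab 0.39 (adjusted p = 0.601), and none of these passed. The Hspb8 difference stayed between 0.82 and 1.15 over 37 alternatives. It was no longer called in 6 of them. Among these were the fits without sc307WT (1.03, adjusted p = 0.0560), without the muscle-high arrays (1.02, adjusted p = 0.154) and without the lymphocyte-high arrays (0.99, adjusted p = 0.0877). The call was also lost with the macrophage covariate (0.93, adjusted p = 0.474) and the adipocyte covariate (0.84, adjusted p = 0.766), each with 0 of all genes called. Without the hepatocyte-high arrays, which left a lone knockout g array, the difference was 0.82.

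The depots were then compared within each genotype. In wild-type cells 5 of 7 members differed between g and sc, beside 17.8% of all genes (9.30% higher and 8.48% lower), and the arrays of the depots did not overlap for the same 5, beside 16.1% of all genes. Hspb7 was higher in g (log2 difference 1.80, SE 0.30, limma adjusted p = 0.000268), against wild-type sc arrays that all lay below the 95th percentile of the negative controls. Hspb6, Hspb8, Cryab and Hspb2 were lower in g. The log2 difference was -1.11 for Hspb6 (SE 0.27, limma adjusted p = 0.00590) and -1.03 for Hspb8 (SE 0.12, limma adjusted p = 9e-06). It was -0.82 for Cryab (SE 0.21, limma adjusted p = 0.00854) and -0.47 for Hspb2 (SE 0.12, limma adjusted p = 0.00667). Hspb2 was dim, below the 95th percentile of the negative controls on all 20 arrays. In wild-type cells Hspb7 averaged 8.41 ± 0.36 in g and 6.60 ± 0.43 in sc, Hspb6 averaged 9.06 ± 0.26 in g and 10.17 ± 0.63 in sc, and Hspb8 averaged 8.03 ± 0.16 in g and 9.06 ± 0.11 in sc (log2, SD, n = 5). Hspb1 was 8.22 ± 0.35 in wild-type g and 8.73 ± 0.16 in wild-type sc cells, a difference of -0.52 that did not pass (limma adjusted p = 0.117). It passed in 4 of 28 alternatives, among them the skeletal muscle covariate (-0.76, limma adjusted p = 0.0295) and the omission of the lymphocyte-high arrays (-0.57, limma adjusted p = 0.0113). That omission drops sc286WT, the lowest wild-type sc array for Hspb1 at 8.53, which widens the difference by construction. In 2 of the 28, the macrophage and the adipocyte covariate, the sign changed. The family had no common depot direction, since Hspb7 ran against the other 4 called members.

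Without the muscle-high arrays the wild-type depot differences of Hspb6, Hspb8, Cryab, Hspb2 and Hspb7 were -0.87, -0.96, -0.80, -0.41 and 1.94, and all 5 passed, with limma adjusted p from 0.000392 to 0.0302. The macrophage and adipocyte means did not overlap between the depots of wild-type cells, with 9.85 to 10.4 in g and 8.47 to 8.83 in sc for macrophages, and 10.9 to 11.3 in g and 11.4 to 11.7 in sc for adipocytes. The mesothelial mean, of 9 markers, did not overlap either, with 5.83 to 6.67 in wild-type g and 4.64 to 5.05 in wild-type sc cells, and 6 of the 9 were higher in g. Of 12 brown adipocyte markers 5 were lower in g and 1 was higher. With the macrophage or the adipocyte mean as a covariate none of the 7 was called, beside 3 and 46 of all genes. With the macrophage mean the differences were 2.50 for Hspb7, -0.71 for Cryab, -0.67 for Hspb8, -0.54 for Hspb2 and 0.47 for Hspb6. With the adipocyte mean they were 1.95 for Hspb7, -1.05 for Hspb6, -0.69 for Hspb8, -0.23 for Hspb2 and 0.03 for Cryab. Of these 5 members Hspb6 with the macrophage mean and Cryab with the adipocyte mean thus changed sign, and the others kept theirs. Of the members not called, Hspb1 changed sign with either mean and Hspb3 with the macrophage mean. With the smooth muscle and pericyte mean Hspb7 and Hspb8 kept their calls, and Hspb6, Cryab and Hspb2 lost theirs. Without the hepatocyte-high arrays the call of Hspb2 was lost (-0.45, limma adjusted p = 0.0622).

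In knockout cells 2 of 7 members differed between the depots, beside 4.13% of all genes (2.87% higher and 1.27% lower). Hspb7 was again higher in g (log2 difference 2.43, SE 0.30, limma adjusted p = 7.1e-05), at 9.75 ± 0.30 in knockout g and 7.33 ± 0.83 in knockout sc cells, where 2 of 5 arrays lay below that percentile. It was the only member whose depots did not overlap in knockout cells, beside 4.26% of all genes, and its call held in 28 of 28 alternatives. Hspb2 was lower in g by -0.47 (SE 0.12, limma adjusted p = 0.0231), a call lost without any 1 of g306 KO, g320 KO, sc300KO, sc306KO or sc318KO (differences of -0.47 to -0.41, adjusted p from 0.0513 to 0.0640). Its signal lay below the 95th percentile of the negative controls on every array. Hspb8 averaged 8.75 ± 0.26 in knockout g and 8.72 ± 0.23 in knockout sc cells, with an interval of -0.23 to 0.30 for the difference. Beside these, the macrophage mean was 8.90 to 9.53 in knockout g and 8.19 to 8.56 in knockout sc cells, and with it as a covariate Hspb7 was still called (2.85, limma adjusted p = 0.0450) while Hspb2 was not (-0.51, limma adjusted p = 0.332). Hspb2 also lost its call with the adipocyte covariate (-0.39, limma adjusted p = 0.113) and the hepatocyte covariate (-0.46, limma adjusted p = 0.0540). The mesothelial mean was 5.82 to 7.54 in knockout g and 4.84 to 5.04 in knockout sc cells, and 8 of its 9 markers were higher in g. Its part in these differences was not tested. Cryab (-0.43, adjusted p = 0.297), Hspb6 (-0.30, adjusted p = 0.613) and Hspb1 (0.53, adjusted p = 0.216) did not pass. Hspb1 passed with the adipocyte covariate (0.91, limma adjusted p = 0.0200) and the smooth muscle covariate (0.68, limma adjusted p = 0.0127). Without the lymphocyte-high arrays, a limit chosen after the values were seen, Hspb7 and Hspb2 kept their calls. Hspb6 (-0.69, limma adjusted p = 0.0240) and Cryab (-0.79, limma adjusted p = 0.0223) then also passed. The knockout sc arrays left out, sc317KO and sc320KO, were the lowest of that group for Hspb6 and Cryab.

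**Figure D4:**
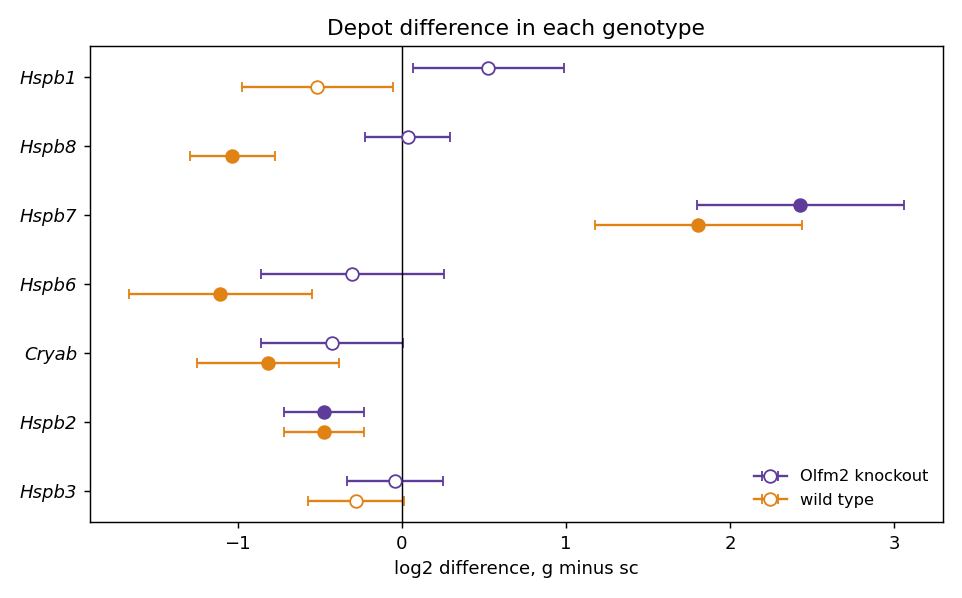
Log2 difference of g minus sc for each member, in Olfm2 knockout (purple) and wild-type cells (orange), with limma's 95% interval. Filled points passed an adjusted p of 0.05. Hspb7 lies to the right in both genotypes, and Hspb8 lies near 0 in knockout and at -1.03 in wild-type cells.

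Across the 4 groups the order of mean log2 signals differed by gene. For Hspb7 it ran from knockout g over wild-type g and knockout sc to wild-type sc, at 9.75, 8.41, 7.33 and 6.60, and the last pair did not pass the test. Wild-type g and knockout sc cells differ in both genotype and depot and were not compared by a test. Hspb8 was highest in wild-type sc cells at 9.06, followed by knockout g at 8.75, knockout sc at 8.72 and wild-type g cells at 8.03. Its 2 middle groups, knockout g and knockout sc, did not pass the test. Hspb1 was highest in knockout g cells at 9.01, Hspb6 in wild-type sc cells at 10.17 and Cryab in knockout sc cells at 10.20. Wild-type g cells were the lowest group for Cryab, Hspb6, Hspb8 and Hspb1.

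The deviations of the members from their group means were correlated over the 20 arrays. Over 21 pairs of members the correlation had a median of 0.31 and ranged from -0.26 to 0.87, with 17 of 21 above 0. The share among pairs of other genes was not computed. For Hspb1, Hspb2, Hspb6, Hspb7 and Cryab the lowest knockout sc arrays were sc317KO and sc320KO, which had lymphocyte means of 8.72 and 8.44. The part of these arrays in the correlations was not tested. Hspb1 and Cryab had the highest value at 0.87, and Hspb7 had 0.67 with Hspb1, 0.71 with Hspb2 and 0.74 with Hspb6. The plain correlation of Hspb7 over the 20 arrays was -0.56 with Hspb2, -0.30 with Hspb6 and 0.38 with Hspb1. Hspb2 and Cryab, which RefSeq places at 1 locus on chromosome 9 with Hspb2 inside the annotated span of Cryab, had 0.73. Hspb8 stood apart from them with values of 0.04 to 0.31 with Hspb1, Cryab, Hspb6, Hspb7 and Hspb2. The arrays share the marker differences given above, so these values describe the arrays and have no p.

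For each member the 3 genes with the highest Pearson r over the 20 arrays were listed. Hspb7 was most like Tgfb3, a TGF-beta ligand (r = 0.93, rho = 0.93), Plekhj1 (r = 0.91) and Cadps (r = 0.91). Hspb8 was most like Gpat3, an acyltransferase of triglyceride synthesis (r = 0.92, rho = 0.86), Atp5j, an ATP synthase subunit (r = 0.90), and Trak1, a mitochondrial trafficking adaptor (r = 0.90). Hspb1 was most like the retrotransposon-derived genes Rtl8a (r = 0.95, rho = 0.97) and Rtl8b (r = 0.95), near-identical copies whose probes may share signal, and Mtfr1l (r = 0.92). Cryab followed Syp, which encodes synaptophysin (r = 0.95, rho = 0.92), Mtss2 (r = 0.94) and Myl4, a myosin light chain (r = 0.92), and Myl4 was also among the 3 of Hspb2 (r = 0.87), with Zim1 (r = 0.90) and Limch1 (r = 0.88). For Hspb6 these were Schip1, Mast4 and Fyco1, with r of 0.91, 0.89 and 0.89, which were 0.78, 0.80 and 0.81 without sc286WT and g307 WT, the arrays farthest from its median. For the dim Hspb3 the highest r was 0.84, with Ybx2.

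Other small heat shock proteins on the array, Cryaa of the eye lens, the testis gene Hspb9 and the sperm tail protein gene Odf1, averaged 4.98, 5.15 and 3.80 over the 20 arrays. The negative control probes had medians of 4.45 to 4.84 on these arrays, and none of the 3 passed in any of the 5 comparisons.

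Large chaperones and heat shock response genes had differences between -0.33 and 0.44 in knockout g cells, all smaller than those of Hspb1, Hspb7 and Hspb8. Of 40 measured genes of 45 listed 6 rose and 1 fell, beside 11.3% of all genes called, with a median of 0.03. The 4 with the smallest p were Dnajb2, an HSP40 co-chaperone (0.42, SE 0.10, limma adjusted p = 0.00831), the mitochondrial HSP90 Trap1 (0.30, adjusted p = 0.00870), the HSP70-interacting St13 (0.35, adjusted p = 0.0199) and the HSP110-class Hspa4l (0.38, adjusted p = 0.0212). Hspa5, the endoplasmic reticulum HSP70, was the gene that fell, by -0.27 (adjusted p = 0.0229), and was named, like the next 2, after its values were seen. Bag1 rose by 0.34 (adjusted p = 0.0275) and Hspa2 by 0.44 (adjusted p = 0.0409). Hspa2 was dim, with means of 6.11 in knockout and 5.67 in wild-type g cells, and its groups overlapped. Both means lay below the 95th percentiles of the negative controls. In sc cells 0 of 40 were called by limma and 6 had an unadjusted p under 0.05, beside 10.3% of all genes, with Dnajb4 at -0.49 (adjusted p = 0.112), Dnajb2 at 0.25 (adjusted p = 0.341), Trap1 at 0.18 (adjusted p = 0.351) and the HSP90 co-chaperone Fkbp5 at 0.58 (adjusted p = 0.382). In wild-type cells 1 of the 40 was higher in g than in sc, Hsp90b1 (0.37, adjusted p = 0.00199), and 5 were lower, including Dnajb1 (-0.34, adjusted p = 0.00227), Bag1 (-0.45, adjusted p = 0.00285) and Hspa12a (-0.70, adjusted p = 0.00958). These 6 of 40 stand beside 17.8% of all genes called in that comparison.

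Of 20 measured partners, kinases and clients of the small heat shock proteins 1 rose in knockout g cells, the 14-3-3 protein gene Ywhag (0.39, SE 0.09, limma adjusted p = 0.00586), and 2 fell, the actin crosslinker Flna (-0.29, adjusted p = 0.0335) and the cytoskeletal actin Actb (-0.27, adjusted p = 0.0427). These 3 of 20 stand beside 11.3% of all genes called, and the list's median was -0.08. In sc cells 0 of 20 passed limma's test and 2 had an unadjusted p under 0.05, beside 10.3% of all genes, the kinases Mapkapk3 (-0.49, adjusted p = 0.180) and Mapkapk2 (-0.36, adjusted p = 0.309), which phosphorylate Hspb1. Between the depots of wild-type cells Flna was higher in g (0.54, adjusted p = 0.000153) as was Mapk14, the p38 kinase upstream of both (0.40, adjusted p = 0.00384), while Ywhag (-0.44, adjusted p = 0.00138) and Prkd1, a kinase of small heat shock proteins (-0.97, adjusted p = 0.00158), were lower. These 4 of 20 stand beside 17.8% of all genes called.

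**Figure D5:**
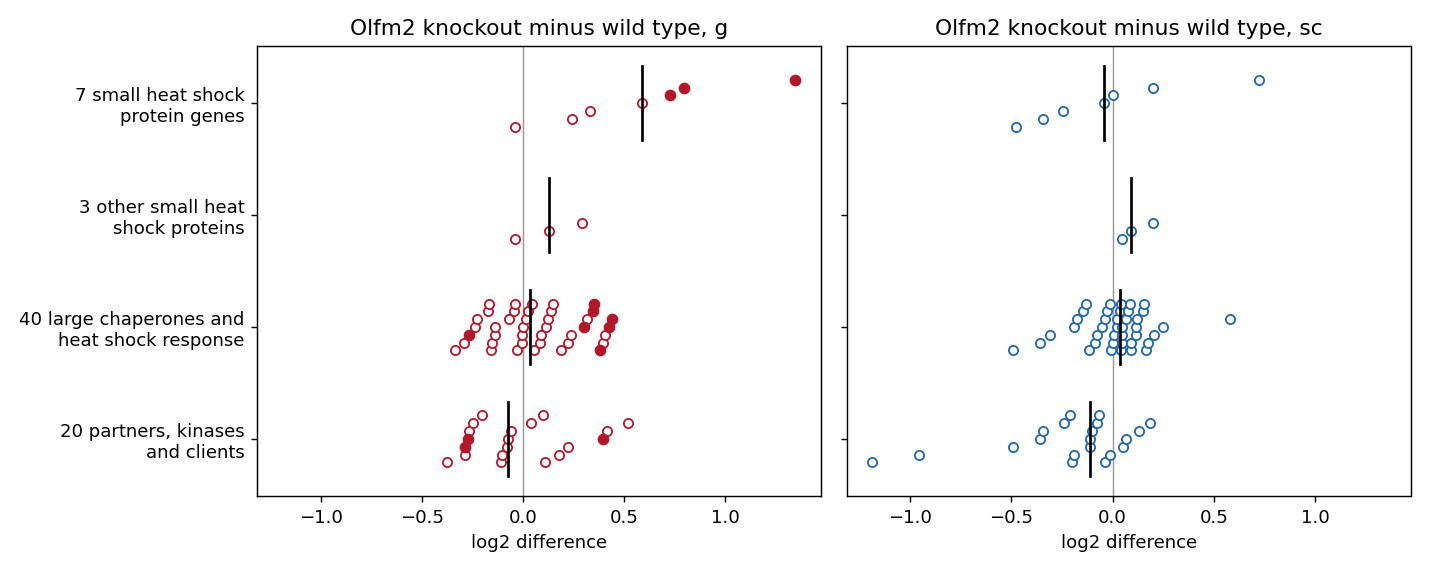
Log2 differences of Olfm2 knockout minus wild type in g (left) and sc (right) for the 7 small heat shock protein genes, 3 further family members, 40 large chaperone and heat shock response genes and 20 partners, kinases and clients. Each point is a gene, filled where the limma adjusted p was under 0.05, and the vertical bar is the list's median, 0.59 for the 7 genes in g and -0.04 in sc.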

How the data were processed

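Total RNA of 20 adipocyte samples was hybridised to Affymetrix expression arrays, and the values used are the log2 signals that the authors deposited, made by RMA per the submitters' processing notes, which also name limma. Their versions are not given here. RMA quantile-normalizes the arrays it is run on, so a gene's level is relative to its whole array. Signals were set beside those of negative control probes to judge how dim they were. Otherwise levels of different probes were not set against each other. Precision is limited by how many arrays there are.

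Of 28846 probes, 6640 were controls, of them 5222 negative controls, and 19572 carried 1 gene symbol by the platform annotation, none several, and 2634 no symbol. Where a gene had several probes, as 55 genes did, the probe with the highest mean was kept, which left 19505 genes. Array medians were 5.78 to 5.92, negative control medians 4.45 to 4.84 and their 95th percentiles 7.02 to 7.48. Hspb2 and Hspb3 were below that percentile on all 20 arrays, and Hspb7 on 7, 5 wild-type and 2 knockout sc.

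Groups came from the sample titles. The series' design text names another gene for the sc samples, while each sample label gives Olfm2, and the sample labels were followed. limma 3.58.1 in R 4.3.3 fitted 4 group means to all arrays, leaving 16 residual degrees of freedom, with 5 contrasts and Benjamini-Hochberg adjustment over all genes in each. A gene was called, and is said to have risen or fallen, at an adjusted p under 0.05, and all tests were two-sided. The steps were tested on simulated data. The members and lists were chosen with earlier results of these data known. Named genes are Olfm2, the members, at most 4 genes of each list with the smallest p in a comparison (3 further called chaperone genes in g were added after their values were seen), and the 3 genes most like each member. Macrophage and adipocyte covariates and the limit on lymphocyte means were chosen after the values were seen. Promoter sequences are from RefSeq.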

Additional observations from a re-analysis of the deposited data

Results flagged for a closer look

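Within each group of 5 arrays the highest and lowest value of each of the 7 members and of Olfm2 was compared with the rest by Dixon's criterion, for 32 groups of values in all, and 1 stood out. Chance gives about 1 in 20. It was Hspb6 on sc286WT, at a log2 signal of 11.27, while the other wild-type sc arrays lay between 9.71 and 10.08, a gap of 0.763 of the group's range. The skeletal muscle mean was 10.0 on that array and 5.40 to 8.21 on the other wild-type sc arrays. The part of skeletal muscle transcripts in this value was not tested.

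The knockout effect on Hspb8 differed between the depots by limma's interaction test, at 1.07 on the log2 scale for g minus sc (adjusted p = 0.0179). This call was lost in 6 of 37 alternatives.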

How the results depend on the processing

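Over 1038 differences of members recomputed under alternatives, 918 kept their direction and side of the threshold, 40 lost and 15 gained a call with their sign kept, and 65 changed sign, 3 of them losing a call as well. Leaving out 1 array at a time gave 2 to 3 members called for the knockout in g, 0 to 1 for the difference of effects and 1 to 2 between depots in knockout cells. The knockout in g called 0 of 7 without the hepatocyte-high arrays and with the macrophage or adipocyte covariate. The knockout in sc called 1 with array weights and 1 without the lymphocyte-high arrays. The difference of effects called 0 without the muscle-, hepatocyte- or lymphocyte-high arrays and with either covariate. Between depots 1 was called in knockout cells with only the groups compared, the hepatocyte or macrophage covariate or without the hepatocyte-high arrays, and 4 without the lymphocyte-high arrays. In wild-type cells 2 were called with the smooth muscle covariate and 0 with the macrophage or adipocyte one, and 6 with only the groups compared, array weights, the skeletal muscle covariate or without the lymphocyte-high arrays. Cause was not tested, beyond the fewer arrays that leaving some out gives.

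Most sign changes were of differences near 0. Without 1 array, the knockout difference in g ranged from -0.091 to 0.012 for Hspb2. In sc it ranged from -0.11 to 0.050 for Hspb2 and from -0.083 to 0.088 for Hspb3. The difference of effects ranged from -0.091 to 0.065 for Hspb2, and g minus sc in knockout cells from -0.14 to 0.037 for Hspb3 and from -0.047 to 0.11 for Hspb8. For the knockout in g, Hspb2 was 0.0082 without the hepatocyte-high arrays, Hspb3 -0.012 and Hspb6 -0.63 with the macrophage covariate, and Hspb1 -0.18 and Cryab -0.14 with the adipocyte one. For the knockout in sc, Hspb3 was -0.0034 (quantile), -0.088 (hepatocyte covariate), -0.11 (hepatocyte-high out), -0.016 (lymphocyte covariate) and -0.088 (macrophage covariate). Hspb2 was 0.066 (array weights), 0.11 (muscle-high out), 0.0038 (smooth muscle covariate), 0.0089 (lymphocyte covariate) and 0.17 (lymphocyte-high out). Cryab was -0.058 without the hepatocyte-high arrays, and Hspb1 was 0.15 and Hspb6 0.19 without the lymphocyte-high ones. For the difference of effects, Hspb2 was -0.0044 (quantile), -0.11 (array weights), -0.16 (muscle-high out), -0.074 (smooth muscle covariate), -0.10 (lymphocyte covariate), -0.21 (lymphocyte-high out) and -0.16 (adipocyte covariate). Hspb7 was -0.12 without the lymphocyte-high arrays and Cryab -0.18 with the adipocyte covariate. For g minus sc in knockout cells, Hspb8 was -0.016 (array weights), -0.0033 (hepatocyte covariate), -0.21 (hepatocyte-high out) and -0.032 (lymphocyte-high out). Hspb3 was 0.0019 (skeletal muscle covariate), 0.055 (hepatocyte-high out) and 0.21 (macrophage covariate). Hspb6 was 0.31 (hepatocyte-high out) and 0.66 (macrophage covariate), and Cryab 0.38 (hepatocyte-high out). For g minus sc in wild-type cells, Hspb1 was 0.0016 (macrophage) and 0.62 (adipocyte), Hspb3 0.13 and Hspb6 0.47 (macrophage), and Cryab 0.034 (adipocyte).

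Each title number occurs in both depots with the same genotype, but its meaning is not stated, so the numbers were not taken as pairs. Samples that share a number did not deviate together (10 pairs, r from -0.46 to 0.14, own number best for 1 of 10). This cannot exclude pairing, since marker signals of single arrays enter r. In the pair with r of -0.46 the hepatocyte mean was 5.72 on g300 KO and 9.96 on sc300KO. With the number as a replicate block the counts of members called were 3 for the knockout in g, 0 in sc, 1 for the difference of effects, 2 for g against sc in knockout and 5 in wild-type cells. The counts over all genes were 2206, 140, 32, 969 and 3931 with the block, against 2200, 132, 15, 806 and 3468 without it. Over the other alternatives the counts over all genes were 1 to 2948 for the knockout in g, 33 to 312 in sc, 0 to 41 for the difference of effects, 54 to 1043 for g against sc in knockout and 3 to 5130 in wild-type cells. Hspb3 has no value under the filter on dim genes, and the difference of effects has no separate fit on only the groups compared. Signal over background limits Hspb2 and Hspb3 most.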
